A study of Homo sapiens with 4 samples.

Results

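The genes described here are CEMIP and 9 genes of hyaluronan turnover in HK-2 cells with inducible PRCC-TFE3, 10 of 34080 genes in the files. CEMIP was selected on its change between these same libraries, so its values are a description with no test. The other 9 were chosen by function, with earlier results of these data known. They are the depolymerase CEMIP2, the synthases HAS1, HAS2 and HAS3, the hyaluronidases HYAL1, HYAL2 and HYAL3, the receptor CD44 and the precursor enzyme UGDH.

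Hyaluronan is a long unbranched sugar polymer that synthases in the plasma membrane spin out into the space around the cell from UDP-glucuronic acid and UDP-N-acetylglucosamine. Long chains are cut at or near the cell surface by CEMIP, CEMIP2 or hyaluronidases, the pieces are taken up and broken down in lysosomes, and receptors such as CD44 bind the chain to the cell. In the kidney the polymer is held mainly in the medulla, and the cortex gains it after tubular injury.

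HK-2 is an immortalised human line derived from the proximal tubule of the kidney. The line studied carries a Tet-On 3G system through which doxycycline switches on HA-PRCC-TFE3, an HA-tagged fusion of PRCC and the transcription factor TFE3. All cultures received 1.5% serum, penicillin and streptomycin in their medium (advanced DMEM/F-12) and, per the study's methods, antibiotics that select for the system. The Doxy(+) group (2 libraries) received 0.2 microg/ml doxycycline for 24 h, and the Doxy(-) group (2 libraries) received none. Whether the line is 1 clone is not stated, and no HK-2 culture without the transgene was analysed here, so doxycycline itself and PRCC-TFE3 cannot be told apart. Nothing in the labels says that the libraries came from separate cultures, so p-values measure the spread between these libraries, which may be technical.

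The estimated counts summed to between 14042545 and 16618401 reads per library, and CPM are counts scaled to a TMM-adjusted total of 1000000 reads on genes. TFE3, the gene that carries the fusion's DNA-binding part, had 66.9 and 69.0 CPM without doxycycline against 367 and 322 CPM with it, a log2 fold change of 2.34 with an SE of 0.072 (edgeR adjusted p 4.78e-05). For PRCC the values were 50.2 and 47.2 CPM against 47.7 and 60.1 CPM, a log2 fold change of 0.15 with an SE of 0.112 (edgeR adjusted p 0.413). PAX8, a renal epithelial factor, held 565 to 605 CPM. Of 10 proximal tubule markers, SLC22A6 and SLC22A8 were listed at 0, and LRP2, AQP1, ANPEP and HNF4A did not pass 0.233 CPM. The 4 that were tested were CUBN at 0.413 to 0.861 CPM, SLC5A2 at 2.93 to 4.07 CPM, SLC34A1 and GGT1. SLC34A1 held 1.32 and 1.09 CPM in Doxy(-) against 0.233 and 0.521 CPM in Doxy(+) and did not pass (edgeR adjusted p 0.0779). GGT1 alone of the 4 was called, at 68.7 and 69.4 CPM in Doxy(-) against 78.0 and 86.1 CPM (edgeR adjusted p 0.041). Of all tested genes, 9.76% were called higher. Of the endothelial markers CDH5 and KDR were listed at 0, and of the leukocyte markers CD3E was, while CD68, a lysosomal glycoprotein, was higher in Doxy(+), at 190 and 189 CPM against 144 and 149 CPM (edgeR adjusted p 0.00208). Of the 5 fibroblast markers COL1A2 and PDGFRA did not pass 0.311 CPM, and COL1A1 fell from 22.3 and 20.2 to 16.7 and 15.5 CPM (edgeR adjusted p 0.0414). The summed level of that list, 186 and 196 CPM in Doxy(-) against 204 and 202 CPM in Doxy(+), was mostly LUM at 160 to 185 CPM.

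The sequences just before the starts of CEMIP and HAS3 are shown because these are the depolymerase with the large difference and the synthase whose level fell. TFE3 and its relatives bind DNA at E-box letters, of which CACGTG is the best known form. The 250 bases before the start are from RefSeq on GRCh38.p14, and both genes are on the plus strand. In HAS3 (chr16:69107290-69107539) the capitals mark CACGTG. In CEMIP (chr15:80779120-80779369) they mark TATAAA, letters that were picked after the sequence had been read.
HAS3: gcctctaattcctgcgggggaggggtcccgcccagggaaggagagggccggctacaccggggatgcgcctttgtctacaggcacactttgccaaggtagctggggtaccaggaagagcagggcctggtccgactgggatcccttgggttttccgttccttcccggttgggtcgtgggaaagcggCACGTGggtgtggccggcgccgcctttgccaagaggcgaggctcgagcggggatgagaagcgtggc
CEMIP: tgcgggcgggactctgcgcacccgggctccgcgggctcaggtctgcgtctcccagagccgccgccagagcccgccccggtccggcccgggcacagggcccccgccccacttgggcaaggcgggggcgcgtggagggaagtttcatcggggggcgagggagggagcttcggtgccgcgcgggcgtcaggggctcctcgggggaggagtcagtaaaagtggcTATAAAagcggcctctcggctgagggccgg

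Of the 10 members, 9 had such a sequence, all but HAS2. On either strand the E-box shown was in that of HAS3 alone, at position -66 counted from the start, and 6.34% of 35116 promoters of this length held it. A related E-box, CATGTG on either strand, was in none of the 9 members and in 9.42% of all promoters. The capitals of CEMIP, searched for on both strands, were in that gene alone among the members, at position -30, and in 10.7% of all promoters. That position is counted from the RefSeq start, which lies downstream of the annotated start of CEMIP-201 at 80779343. The letters thus span the annotated start of CEMIP-201, the form with most counts. The bases printed after them lie in its first exon. A match is a string of letters in this window and not a measured binding site.

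**Figure D1:**
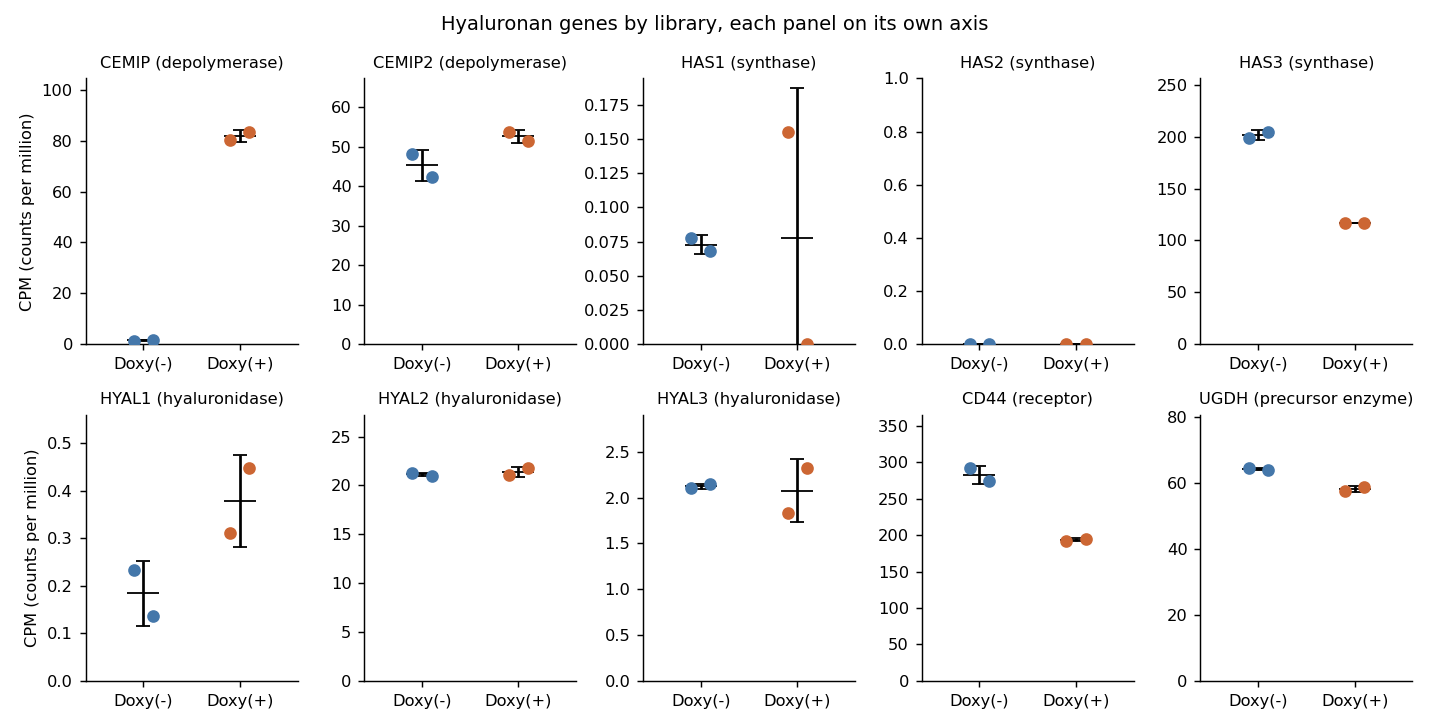
Counts scaled to a common library total (CPM, vertical axes from 0, each panel on its own scale) of the 10 hyaluronan genes in the 2 Doxy(-) and 2 Doxy(+) libraries. Points are libraries, the long bar is the mean and the whisker the SD. CEMIP went from 1.40 and 1.70 to 80.3 and 83.6 CPM, and the HAS3 and CD44 groups do not overlap.

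First, the depolymerases were examined. CEMIP, also known as KIAA1199 or HYBID, binds hyaluronan and is needed for its cutting in fibroblasts. It lies on chromosome 15, 80779343 to 80951776 (ENSG00000103888.17; coordinates here and below are GENCODE release 44 on hg38). CEMIP held 18 and 25 estimated counts in the Doxy(-) libraries, and 1034 and 1123 in those with doxycycline. These are 1.40 and 1.70 CPM against 80.3 and 83.6 CPM, and the means were 1.55 ± 0.216 against 81.9 ± 2.34 CPM (SD, n = 2 each). The groups lie far apart, with a ratio of means of 52.9 and a log2 fold change of 5.71 (SE 0.0991). Among 13569 tested genes CEMIP ranked 12386 by mean CPM in Doxy(-) and 2682 in Doxy(+), so a gene near the bottom of the measured range moved into its upper part. Its log2 fold change was the sixth largest. Genes above it include TRIM63 (8.08) and SYT16 (7.40), which had no count in Doxy(-), so their values do not rest on a measured Doxy(-) level.

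CEMIP2, or TMEM2, is a membrane protein related to CEMIP that has been reported to cut hyaluronan on the cell surface (chromosome 9, 71683366 to 71816690). It held 48.1 and 42.5 CPM in Doxy(-) and 53.8 and 51.5 CPM in Doxy(+). Both Doxy(+) libraries were above both Doxy(-) libraries, by a small margin. The log2 fold change was 0.22 (SE 0.0757, 95% interval 0.04 to 0.40). It had an edgeR adjusted p of 0.0989 and did not pass the limit of 0.05. Without Doxy(-) 1 the value was 0.31 with an edgeR adjusted p of 0.0283, in a fit that assumes the lone Doxy(-) library to vary like the Doxy(+) libraries.

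The depolymerases were also compared by level per length. In TPM, CEMIP stood at 0.642 and 2.40 in Doxy(-), under CEMIP2 at 13.9 and 11.5. In Doxy(+) CEMIP stood at 22.9 and 28.1 TPM, above CEMIP2 at 19.4 and 15.6 TPM. Short CEMIP transcripts with few reads add to its TPM. The long ones alone came to 16.2 and 16.6 TPM, inside the range of CEMIP2 with all its transcripts. The longest CEMIP2 forms, CEMIP2-202, CEMIP2-210 and CEMIP2-205, held 3.76, 6.69 and 1.92 TPM in Doxy(+) 1 and 5.99, 6.68 and 9.63e-05 TPM in Doxy(+) 2. In CPM CEMIP was also above CEMIP2 in Doxy(+), at 80.3 and 83.6 against 53.8 and 51.5 CPM.

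Next, the annotated transcripts of CEMIP were compared, since the gene's TPM gave a smaller ratio than its counts. The files hold 6 CEMIP transcripts. CEMIP-201, with 29 exons and 7226 nt, took 16.1 and 16.7 estimated counts in Doxy(-), against 901 and 982 in Doxy(+). CEMIP-202, with 30 exons, took counts that round to 0 in both Doxy(-) libraries and 107 and 95.5 in Doxy(+). Set against 3 counts per library, the limit that a count of 0 allows for counting error, this transcript was 35.6-fold higher in Doxy(+). That limit leaves out how reads shared with CEMIP-201 were divided, so the value is no lower bound of the ratio. CEMIP-203, the longest form at 7357 nt, was listed at 0 in all 4 libraries. CEMIP-202 and CEMIP-203 differ from CEMIP-201 by an extra second exon that starts at 80873538 and spans 99 bases in CEMIP-202 and 159 bases in CEMIP-203. Most reads therefore fell to the form without that exon, as far as the quantifier could divide reads that these forms share.

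The 3 long forms together held 0.252 and 0.227 TPM in Doxy(-) and 16.2 and 16.6 TPM in Doxy(+), a ratio of means of 68.4. The 3 short forms, of 385 to 648 nt, held 1.88 and 8.31 counts against 25.4 and 44.6 counts. Divided by their short lengths these few reads came to 0.390 and 2.17 TPM against 6.70 and 11.5 TPM, a ratio of means of 7.11. The short forms thus carried most of the gene's TPM in Doxy(-) and most of its spread between replicates. The log2 fold change of CEMIP was 3.48 with limma on log2(TPM + 1), 4.22 with limma on log2(TPM + 0.1) and 3.99 with length-scaled counts, all in the same direction as with counts.

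**Figure D2:**
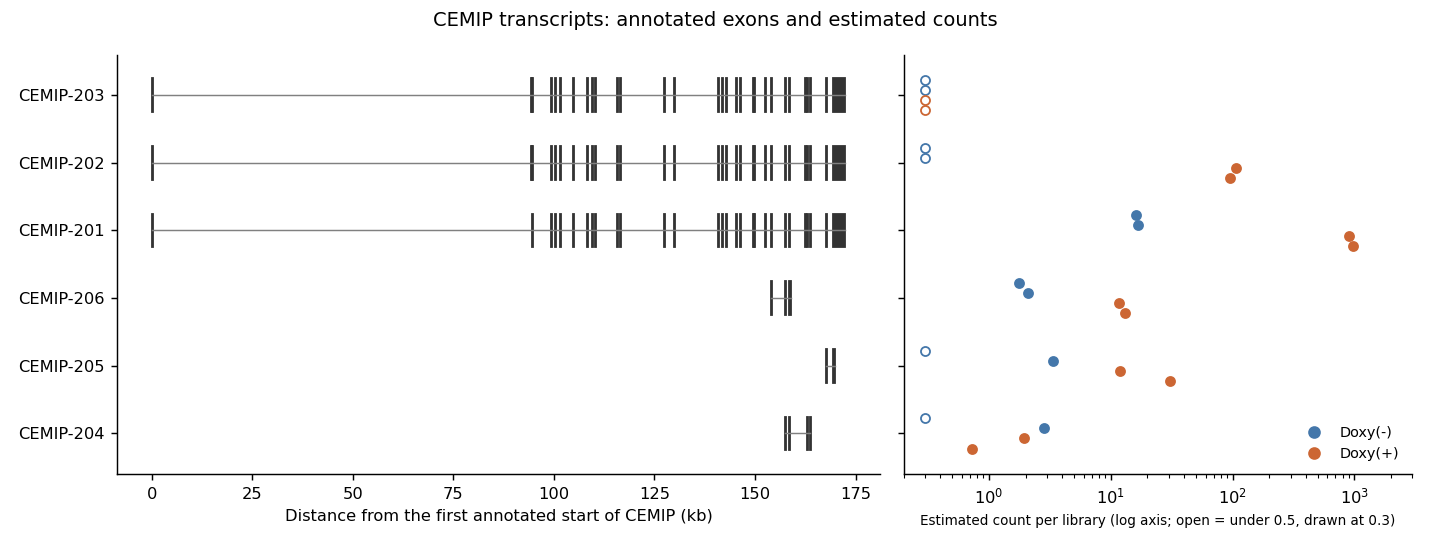
Annotated exons of the 6 CEMIP transcripts (left, kb from the first annotated start; narrow exons are widened to be visible) and their estimated counts in each library (right, log axis; open points are counts that round to 0). CEMIP-201 holds most counts, with 901 and 982 in Doxy(+) against 16.1 and 16.7 in Doxy(-).

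Exons of CEMIP overlap those of MESD, a chaperone gene on the opposite strand, by 102 bases. Whether the counting used the strand is not stated, so reads of that stretch could be placed on either gene. The mean count of MESD was 889, and its log2 fold change of 0.10 had an edgeR adjusted p of 0.269.

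The 5 tested genes whose profile over the 4 libraries lay closest to that of CEMIP were NMRK2, TRIM63, ADAT3, ENSAP2 and SYT16. Likeness was the Euclidean distance of log2 CPM centred on Doxy(-), with CEMIP itself at 7.92 from a flat profile. NMRK2, a nicotinamide riboside kinase, was nearest at a distance of 1.73, with 0.543 and 0.408 CPM against 13.7 and 12.4 CPM. TRIM63, a muscle ubiquitin ligase, followed at 2.04, with no count in Doxy(-) and 2.49 and 2.53 CPM in Doxy(+). ADAT3, which encodes a subunit of a transfer RNA deaminase, lay at 2.63, with 0.331 and 0.691 CPM against 9.23 and 7.82 CPM. ENSAP2, annotated as a processed pseudogene and so open to reads of its parent gene, and SYT16 lay at 2.92 and 2.97, and both had counts that round to 0 in Doxy(-). None of the 5 came near the level of CEMIP in Doxy(+), the highest being NMRK2.

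The synthases were then examined, and HAS3 alone was well above the limit of detection. HAS3 makes hyaluronan chains in the plasma membrane (ENSG00000103044.11, chromosome 16, 69105653 to 69118719). Its estimated counts were 2558 and 3011 in Doxy(-), against 1501 and 1565 in Doxy(+). These are 198 and 205 CPM against 117 and 117 CPM, and the means were 202 ± 4.58 against 117 ± 0.0135 CPM (SD, n = 2 each). Both Doxy(+) libraries were below both Doxy(-) libraries, and the gap was many times the spread within a group. HAS3 fell by 0.79 on the log2 scale (SE 0.0387, 95% interval -0.89 to -0.70, edgeR adjusted p 0.000188). Of all tested genes, 2.08% had a lower log2 fold change.

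HAS1 and HAS2 were at the limit of detection. HAS1 (chromosome 19, 51713112 to 51723991) held 1 count in each Doxy(-) library and 2 and 0 in Doxy(+). HAS2, the synthase of heart development, held 0 counts in all 4 libraries, which allows up to 0.218 CPM in Doxy(-) and 0.228 CPM in Doxy(+), for counting error only. Neither passed the low-count filter, and neither was tested.

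Nearly all HAS3 reads were placed on HAS3-202, whose start at 69107540 directly follows the printed sequence that holds CACGTG. HAS3-202 held 2441 and 2894 counts in Doxy(-), against 1453 and 1481 in Doxy(+), without overlap. HAS3-205, which starts upstream at 69105653, held 11.1 and 31.4 counts against 0 and 6.88. Exons of HAS3 overlap those of CHTF8 and DERPC on the opposite strand by 365 bases. The log2 fold changes of these neighbours were 0.02 each, with edgeR adjusted p of 0.823 and 0.900.

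UGDH, the enzyme that oxidises UDP-glucose to the UDP-glucuronic acid the synthases need, lies on chromosome 4, 39498755 to 39528311. It held 64.4 and 64.0 CPM in Doxy(-) and 57.5 and 58.8 CPM in Doxy(+). The groups do not overlap, with lower values in Doxy(+). The log2 fold change of -0.14 (SE 0.052, 95% interval -0.27 to -0.02) had an edgeR adjusted p of 0.114 and did not pass.

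The hyaluronidases HYAL1, HYAL2 and HYAL3 are neighbours on chromosome 3. HYAL2, a surface-anchored enzyme (50317790 to 50322782), held 21.3 and 21.0 CPM in Doxy(-) and 21.0 and 21.8 CPM in Doxy(+). These groups overlap, and the log2 fold change was 0.02 with a 95% interval of -0.18 to 0.22 (SE 0.0828, edgeR adjusted p 0.91). HYAL3 (50292831 to 50299405) held 27.1 and 31.5 counts against 23.6 and 31.1 counts. Its groups overlap as well, and its log2 fold change was -0.03 with a wide 95% interval of -0.73 to 0.67 (SE 0.287, edgeR adjusted p 0.952). HYAL1, the lysosomal enzyme (50299890 to 50312381), held 3 and 2 counts against 4 and 6.01 counts and was not tested.

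The levels of HYAL2 and HYAL3 are low estimates. Identifiers without a match in the annotation repeated 5 HYAL2 transcripts and 3 HYAL3 transcripts, and the HYAL2 copies held 273 and 309 counts in Doxy(-), against 271 and 292 in Doxy(+), about as many as the gene itself. HYAL2 also shares 509 exon bases with TUSC2 on the same strand, and HYAL3 shares 232 with NAA80 and 43 with IFRD2, so reads there can be divided between genes.

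CD44, the main surface receptor for hyaluronan, had the highest level of the 10 members (ENSG00000026508.21, chromosome 11, 35138882 to 35232402). Its counts were 3758 and 4027 in Doxy(-), against 2475 and 2621 in Doxy(+). These are 292 and 274 CPM against 192 and 195 CPM, and the means were 283 ± 12.3 against 194 ± 2.12 CPM (SD, n = 2 each). All Doxy(+) values were below all Doxy(-) values. CD44 fell by 0.55 on the log2 scale (SE 0.042, 95% interval -0.65 to -0.44, edgeR adjusted p 0.000726). With limma on log2(TPM + 1) the value was -0.48 and the adjusted p 0.0529, which did not pass.

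CD44 is known for alternative splicing of a block of variable exons. The block lies between 35190066 and 35214851 as an intron of CD44-201, a form without these exons. CD44-201 held 1925 and 2220 counts in Doxy(-), against 1312 and 1325 in Doxy(+). CD44-209, with bases of the block in 3 exons, held 730 and 756 counts against 445 and 342. For both forms the groups do not overlap, while CD44-207, a form annotated for nonsense-mediated decay, held 317 and 189 counts against 316 and 326.

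Summed over the 28 annotated transcripts that hold bases of the block, the level was 93.5 and 86.8 CPM in Doxy(-) and 57.9 and 53.7 CPM in Doxy(+), a log2 ratio of means of -0.69. The 3 transcripts that join across the block by the same exon ends as CD44-201 came to 175 and 165 CPM against 128 and 125 CPM. Their log2 ratio was -0.42. The 7 that do neither came to 24.6 and 23.6 CPM against 8.38 and 19.0 CPM. Among these 7, CD44-203, CD44-204, CD44-205 and CD44-224 span the block without its bases, so they skip it through other exon ends. The ratio of -0.42 thus leaves out some forms without the block. Each class was thus lower in both Doxy(+) libraries, and a difference between the classes was not tested. Of 20 CD44 transcripts with a mean of at least 10 counts, 19 were lower on average in Doxy(+), beside 50.6% of all transcripts of that depth. In 7 of the 20 the groups do not overlap, beside 41.8% of those transcripts. The 20 transcripts divide the reads of the same gene, which was itself lower, so they are not separate observations.

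**Figure D3:**
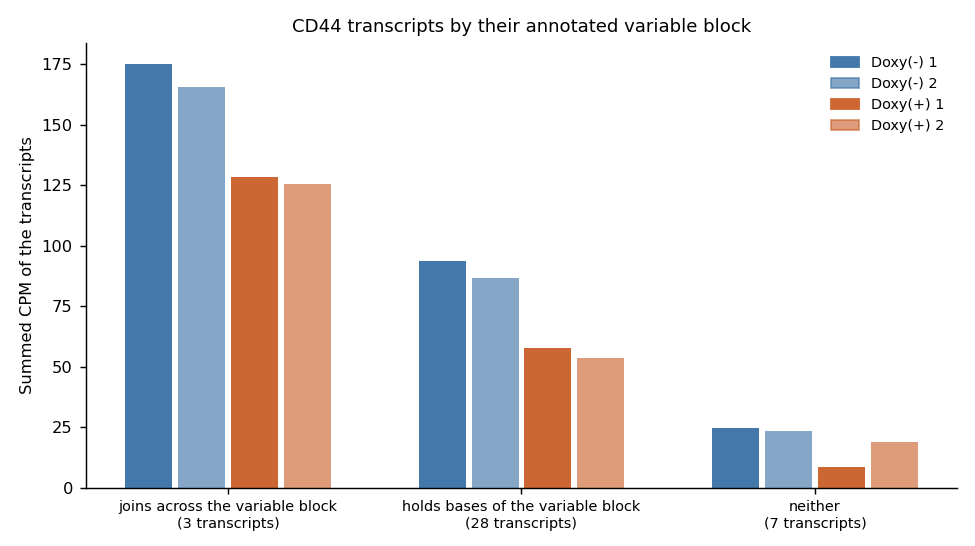
Summed CPM (vertical axis, from 0) of CD44 transcripts that join across the variable block by the same exon ends as CD44-201, hold bases of it, or do neither. The last class includes forms that skip the block through other exon ends. Bars are the 4 libraries. The bars of both Doxy(+) libraries are below those of both Doxy(-) libraries in each class, for example 57.9 and 53.7 against 93.5 and 86.8 CPM for transcripts with block bases.

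Single transcripts were tested as well. Of 98 transcripts of the 9 genes other than CEMIP, 38 were tested. The edgeR fit placed 0 of them past an adjusted p of 0.05, where 0.0176% of all 45331 tested transcripts passed. On simulated data this fit recovered 8% of transcripts changed by 1 on the log2 scale and 45% of those changed by 2. The absence of calls therefore says little about these transcripts. Before adjustment, 3 had a p under 0.05 and were lower, and 0 were higher, beside 9.55% of all transcripts in either direction. DESeq2 called 3 lower and 0 higher, namely CD44-201, CD44-209 and HAS3-202. The share of all transcripts that DESeq2 called was not counted, so these 3 calls cannot be set against a general rate.

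In all, of the 9 genes other than CEMIP, 6 were tested, and HYAL1, HAS1 and HAS2 were not. By edgeR, 2 were lower, HAS3 and CD44, beside 9.53% of all tested genes. By the same test 0 were higher, beside 9.76% of all tested genes, and DESeq2 also called 0 higher. Only before adjustment did UGDH (lower, edgeR p 0.0331) and CEMIP2 (higher, edgeR p 0.0266) have a p under 0.05. The share of all genes at that unadjusted limit was not counted. None of the 6 had a log2 fold change over 1 in size, where 1.98% of all tested genes passed both limits. In 4 of the 6 (CEMIP2, HAS3, CD44 and UGDH) the groups do not overlap, as in 61.1% of all tested genes, so separation of 2 against 2 libraries says little by itself. In bulk RNA, fewer cells of a type and less RNA per cell cannot be told apart.

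The order of levels per length was CD44, HAS3, UGDH, HYAL2, CEMIP2, HYAL3, CEMIP, HYAL1, HAS1 and HAS2 in Doxy(-). The mean TPM in Doxy(-) was 210 ± 10.1 for CD44, 83.2 ± 1.26 for HAS3, 55.5 ± 4.13 for UGDH and 15.9 ± 0.0348 for HYAL2 (SD, n = 2 each). HYAL3, at 3.05 ± 1.40 TPM, and CEMIP, at 1.52 ± 1.24 TPM, did not differ beyond their spread. In Doxy(+) the mean TPM of CD44 was 151 ± 20.2, followed by HAS3 at 50.3 ± 2.39 and UGDH at 49.2 ± 1.01, which overlapped each other. CEMIP came next at 25.5 ± 3.68 TPM, 3 places higher than in Doxy(-), followed by CEMIP2 at 17.5 ± 2.74 and HYAL2 at 16.3 ± 0.269 TPM, which also overlapped. Without its short transcripts CEMIP would stand at 16.4 TPM, beside 17.5 TPM for CEMIP2 and 16.3 TPM for HYAL2 with their short transcripts kept. HYAL3, HYAL1, HAS1 and HAS2 held the lowest places. The HYAL2 level is a low estimate, since its copies, left out here, held 271 and 292 counts in Doxy(+), about as many as the gene. With them HYAL2 could stand above CEMIP2 and CEMIP in Doxy(+), so its place against these genes is not settled.

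Finally, other genes of the pathway were compared, in lists that were written with earlier results known. Among 10 enzymes that supply UDP-sugars, all tested, 1 rose and 1 fell, with a median log2 fold change of 0.04 beside 0.000616 for all tested genes. Of all tested genes, 9.76% rose and 9.53% fell by edgeR. HK1, a hexokinase, went from 156 and 156 CPM to 169 and 179 CPM (log2 fold change 0.16, edgeR adjusted p 0.0472). GNPNAT1, an acetyltransferase on the way to UDP-N-acetylglucosamine, went from 74.4 and 81.1 CPM to 66.1 and 65.1 CPM (log2 fold change -0.25, edgeR adjusted p 0.0376).

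Of 24 hyaluronan-binding proteins and further receptors, 8 passed the low-count filter, and LYVE1, HAPLN1 and ITIH1 were listed at 0. Of those 8, 0 rose and 2 fell by edgeR, beside 9.76% and 9.53% of all tested genes. VCAN, or versican, a large proteoglycan that binds hyaluronan in the matrix, fell from 1344 and 1364 CPM to 965 and 949 CPM (log2 fold change -0.50, edgeR adjusted p 0.000237). HMMR, a hyaluronan-binding protein that also acts at the mitotic spindle, fell from 57.2 and 61.6 CPM to 41.7 and 40.7 CPM (log2 fold change -0.53, edgeR adjusted p 0.00315). The groups of both genes do not overlap. The median over the 8 was -0.29.

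Of 4 genes for the breakdown of fragments and further hyaluronidases, 2 were tested and 1 rose, beside 9.76% of all tested genes. The median was 0.43. HEXA, part of a lysosomal enzyme that removes N-acetylhexosamine from chain ends, rose from 87.6 and 81.4 CPM to 149 and 145 CPM (log2 fold change 0.80, edgeR adjusted p 0.000408). GUSB, the lysosomal beta-glucuronidase, held 27.6 and 29.5 CPM against 27.9 and 31.7 CPM and did not pass (edgeR adjusted p 0.682). SPAM1, the sperm hyaluronidase, was listed at 0.

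Of 10 CD44 partners, 9 were tested, of which 1 rose and 3 fell, beside 9.76% and 9.53% of all tested genes. The median was -0.18. SPP1, or osteopontin, a CD44 ligand, rose from 1438 and 1471 CPM to 1778 and 1773 CPM (log2 fold change 0.29, edgeR adjusted p 0.00123). ADAM10, a sheddase that cuts CD44, fell from 195 and 195 CPM to 162 and 164 CPM (log2 fold change -0.25, edgeR adjusted p 0.00522). The other genes that fell were named after their values were seen. EZR, which links CD44 to actin, had a log2 fold change of -0.19 (edgeR adjusted p 0.00868), and NF2, which encodes merlin, one of -0.28 (edgeR adjusted p 0.0176). None of the list genes that passed the test had a log2 fold change over 1 in size.

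**Figure D4:**
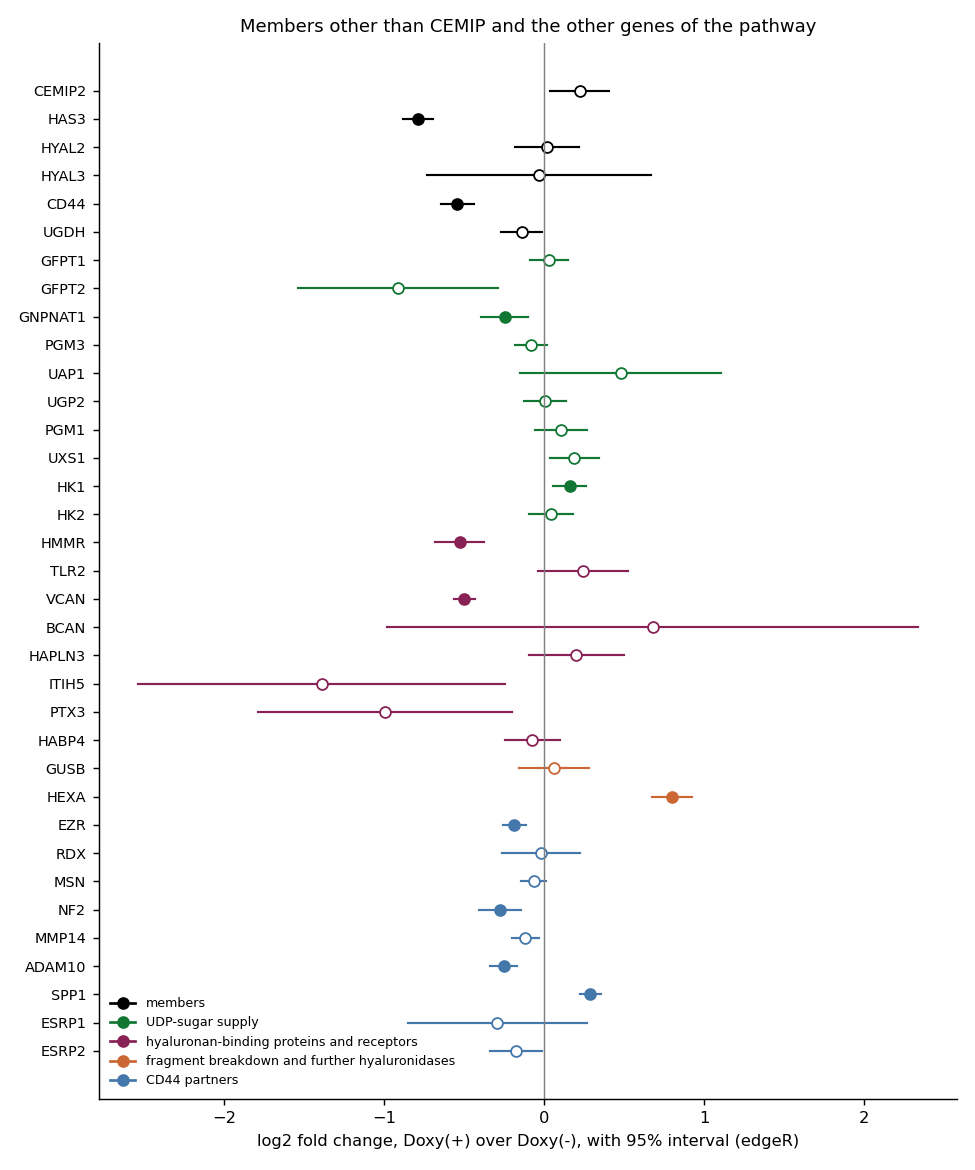
Log2 fold changes, Doxy(+) over Doxy(-), with 95% intervals from edgeR (horizontal axis) for the 6 tested members other than CEMIP and the tested genes of the 4 lists; filled points had an adjusted p under 0.05. HAS3 (-0.79) and CD44 (-0.55) are to the left of 0, HEXA (0.80) to the right.

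Epithelial markers moved in the same direction as HAS3 and CD44. Of 6 such markers, 5 were tested and 3 (KRT8, KRT18 and KRT19) fell, beside 9.53% of all tested genes. Their summed level was 1395 and 1377 CPM in Doxy(-) and 1113 and 1118 CPM in Doxy(+), and CDH1 did not pass 0.817 CPM in any library. Their part in the lower HAS3 and CD44 values was not tested.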

How the data were processed

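RNA of 4 libraries, 2 of Doxy(-) and 2 of Doxy(+), was made with a stranded mRNA kit and sequenced by single-end reads. Per the submitters' notes and the study's methods, the authors trimmed reads with Trim Galore 0.6.6 and cutadapt 2.5, aligned them to hg38 with STAR 2.7.9a and quantified transcripts with RSEM. The deposited tables have instead the columns that kallisto writes, over 180253 Ensembl transcripts, and which tool and release made them, and whether it used the strand, is not given in the sources used here. The authors deposited estimated counts, which are not normalized and are divided among transcripts that share reads, and the deposited TPM values are scaled by the authors' quantifier to 1000000 per library.

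The members and lists were chosen with earlier results of these data known. Through GENCODE release 44, 150691 identifiers (83.6%) matched 34080 genes, and the rest, 9.66% to 9.89% of each library's counts, were left out of totals and tests. Per gene the counts were summed, rounded to integers and compared with edgeR 4.0.16 (glmQLFit and glmQLFTest, TMM, filterByExpr, group only) in R 4.3.3 over 13569 genes, and rounded transcript counts over 45331 transcripts. P-values are two-sided and were adjusted by the Benjamini-Hochberg method over all features tested, with limits of 0.05 and, for the second limit, a log2 fold change of 1 in size. The log2 fold change is Doxy(+) over Doxy(-). A count of 0 allows up to 3 counts, for counting error only. The fits were tested on simulated data.

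Named are all 10 members, TFE3 and PRCC, the 2 genes of each list with the smallest p, the 5 genes most like CEMIP, the CEMIP and CD44 transcripts with a mean of at least 10 counts (CD44 by class and count) and any marker a statement needs. The alternatives comprised DESeq2 1.42.0, limma 3.58.1 on log2(TPM + 1) and log2(TPM + 0.1) for genes with a mean of at least 1 TPM, length-scaled counts, added or separately tested unmatched identifiers, RLE scaling, no filter, a replicate block and leaving out each library. The results of some list genes are not reported here, and their lists are given without them. Sequences and their starts are from RefSeq (GRCh38.p14).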

Additional observations from a re-analysis of the deposited data

How the results depend on the processing

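HAS3 stayed lower with an adjusted p under 0.05 in all 14 alternatives (log2 fold change -0.82 to -0.72, adjusted p at most 0.00831). CD44 was -0.48 with limma on log2(TPM + 1) and -0.48 on log2(TPM + 0.1), with adjusted p of 0.0529 and 0.0553, which left 1 member lower under each. It passed in the other 12. CEMIP was 3.48 and 4.22 in these limma fits and 3.99 with length-scaled counts, and kept its direction. Its short transcripts weigh more in TPM and length-scaled counts than in counts. The limma fits use the same TPM and differ only in the added 1 or 0.1. CEMIP2 was 0.43 and 0.46 in the limma fits and 0.43 with length-scaled counts, past the limit in none of these. It ran from 0.13 to 0.31 when libraries were left out, each time with a lone library assumed to vary like the other group, and the number of members called higher from 0 to 1. The lower call count stayed at 2 in those fits. In the same fits HYAL2 ran from -0.0068 (without Doxy(+) 2) to 0.0401 and HYAL3 from -0.20 to 0.11 (without Doxy(+) 1), none past the limit. UGDH kept its direction and did not pass in any of 14 (-0.21 to -0.13, adjusted p 0.109 to 0.398). DESeq2 called 3 transcripts of the members lower where edgeR called 0, with its share over all transcripts not counted. Why these values moved was not tested.

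Over 9609 genes at a mean of 10 CPM or more, deviations of same-numbered libraries correlated at -0.22, which does not meet the criterion for pairing, and what the numbers mark is not stated. With the replicate block, 2 members were lower and 0 higher, and 1282 genes were higher and 1261 lower. Crossed pairing, chosen after seeing the data, gave 2 members lower and 0 higher, and 1178 genes higher and 1133 lower. Leaving out a library gave 647 to 1233 genes higher and 565 to 1308 lower, and the limma fits called 590 and 598 higher and 299 and 306 lower. Length-scaled counts gave 677 higher and 583 lower, and a fit that also held the identifiers without a match gave 737 and 704. With 2 libraries a group, low-count members such as HYAL3 have wide intervals, and HAS1, HAS2 and HYAL1 are limited by depth.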
